A study of Ambystoma mexicanum with 20 samples.

Results

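The RNAs described here were those with their highest level in segment D, the fourth of 5 consecutive pieces of the axolotl oocyte counted from the animal pole. A feature of the count table was a member when its mean over the 20 libraries was at least 5 CPM (the count scaled to a common library total), when segment D held its highest CPM within each of 4 oocytes, and when its mean in D was at least 1.2 times the mean of every other segment. The rule found 27 members among 20742 features with a mean of at least 5 CPM and 32960 features in all, that is 0.13% of those with enough counts. The members were chosen on these same libraries, so their excess in D over other segments is a description and was not tested. The files do not pair the identifiers with gene names, and the roles of the members in the cell are therefore not given.

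The samples were pieces of single oocytes, the immature egg cells, of the salamander Ambystoma mexicanum. The labels name segment D by its letter alone and give the other segments as A (animal end), B, C and E (vegetal end). Each of the 4 oocytes, numbered 1 to 4 as in the labels, gave 1 library per segment, and no strain, treatment, age or stage is given. The sample titles and count columns share a numbering of the same oocytes that differs from that of the labels. The labels do not say whether the oocytes came from different animals, so the spread between them may be smaller than that between females.

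An oocyte is polarised long before fertilisation. In the frog Xenopus, several maternal RNAs are carried to the vegetal cortex and held there, where they later direct germ layer formation and, through the germ plasm, the germ line. The axolotl is known for making its germ cells by induction, without a maternal germ plasm. A profile that rises towards the vegetal pole and is highest at that pole is thus a known form of an asymmetric maternal RNA, and a maximum in the piece just before the pole is a different one. The comparison of interest was how many RNAs had such a subpolar maximum and how firmly it stood.

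Library totals ran from 3589203 to 7587626 counts in D, and over the other segments from 806943 (E of oocyte 2) to 15554319 (A of oocyte 4). A floor of 3 counts corresponded to 0.395 to 0.836 CPM in the D libraries and to 3.72 CPM in E of oocyte 2. The next shallowest library was B of oocyte 4, with 1467884 counts and a floor of 2.04 CPM. In each of these 2 shallow libraries 3 members were at 0. Of the 27 members, 17 had fewer than 10 counts in that shallow E library, so that their margin of D over E in oocyte 2 rested on few reads. Each library was made from the same mass of RNA, per the labels' protocols, so a level is a share of the RNA of its segment and not an amount per segment.

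A maximum in D was about as rare as a maximum in A, B or C, and far rarer than one in E. The rule found 27 features for D, against 52 for A (0.251%), 35 for B (0.169%), 20 for C (0.0964%) and 1295 for E (6.24%). The peaks in D were also shallow. The D mean was a median of 1.32 times the next segment's mean among the D members, against 1.29 for A, 1.27 for B, 1.27 for C and 1.93 for E, each over its own members. At least 1.5 times was reached by 6 features for D, against 5 for A, 1 for B, 2 for C and 1026 for E. These values describe the choice and carry no test.

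**Figure D1:**
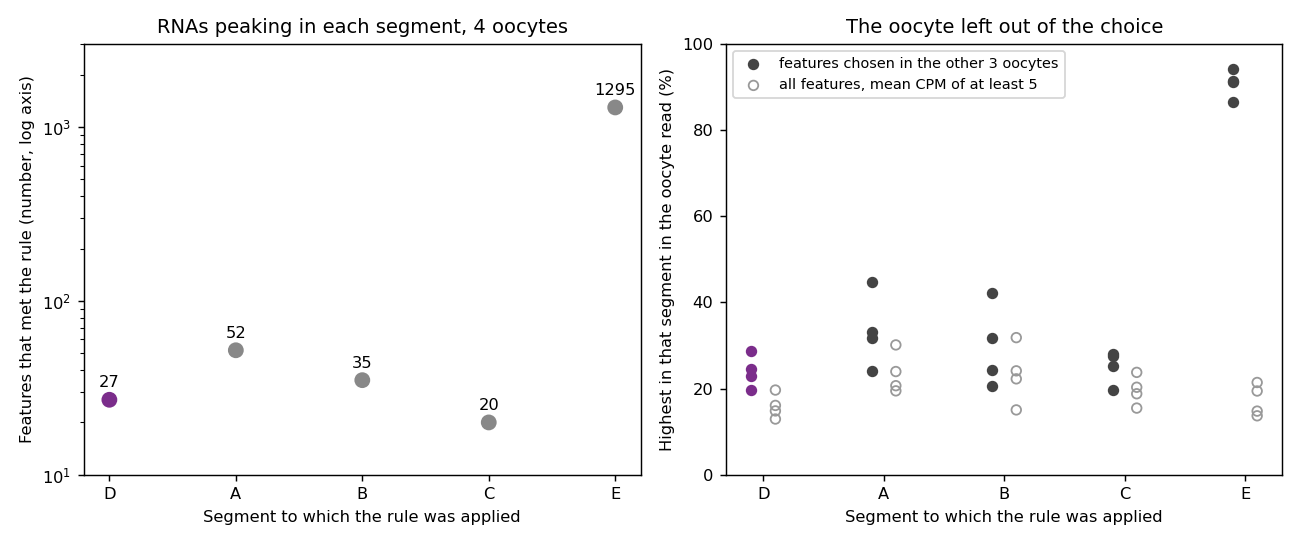
Left, the number of features that met the rule when it was applied to each segment (log axis). Right, the percentage of features chosen in 3 oocytes that were highest in the same segment in the remaining oocyte (filled points, 1 per oocyte left out), beside that percentage among all features with a mean of at least 5 CPM (open points). The points for D lie between 19.7% and 28.7%, and those for E between 86.4% and 94.2%.

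The order of the segments was then read in an oocyte that had taken no part in the choice. The rule was applied to 3 oocytes and the remaining oocyte was read, for each oocyte in turn. Without oocyte 1, 83 features peaked in D, and 22.9% of them were highest in D in oocyte 1, against 19.7% of all features with a mean of at least 5 CPM. Read in oocyte 2, 28.7% of 87 chosen features were highest in D, against 16.1% of all. In oocyte 3 it was 24.5% of 110, against 12.9%. In oocyte 4 it was 19.7% of 117, against 14.8%. The percentage lay above that of all features in 4 of 4 rounds, and most choices did not recur.

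Over the 4 rounds, 94 of 397 choices for D recurred (23.7%, exact binomial 95% interval 19.6 to 28.2), where all features averaged 15.9%. The interval treats choices as independent, although a feature could be chosen in several rounds and all choices of a round were read in the same oocyte. It does not measure the spread between the 4 oocytes, in which the percentage ran from 19.7% to 28.7%. The background of all features was not matched to the chosen features in level, and the effect of level on recurrence was not tested. For A, 31.4% of 599 choices recurred, where all features averaged 23.6%. For B it was 27.4% of 493, against 23.3%, and for C 25.3% of 328, against 19.6%. For E, 90.7% of 5631 choices recurred, against 17.3%. The pooled recurrence exceeded the unweighted mean background by 7.79 percentage points for D. This excess was 7.82 for A, 4.06 for B, 5.71 for C and 73.4 for E. On TMM-scaled CPM, a scaling by the trimmed mean of M-values, it was 8.35 points for D. It was then 9.26 for A, 7.97 for B, 5.85 for C and 57.9 for E. The pooled recurrence weights each round by the features chosen, and the mean background does not. For B, 174 features were chosen in the round with a background of 15.1%, and 64 in that with 31.8%. Small differences in excess between A, B, C and D are therefore no ranking.

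In the oocyte left out, another segment was usually above D. The D level of the chosen features was a median of 0.815, 0.860, 0.838 and 0.821 times the highest other segment in oocytes 1, 2, 3 and 4, against 0.786, 0.786, 0.733 and 0.779 for all features. The same medians were 2.48, 1.97, 1.42 and 1.74 for the features chosen for E. When 2 oocytes chose and the other 2 were read, the result was similar. Of 310 features chosen for D in oocytes 1 and 4, 24 (7.74%) were highest in D in both oocytes 2 and 3, against 3.44% of all features. Of 287 chosen in oocytes 2 and 3, 17 (5.92%) were highest in D in both oocytes 1 and 4, against 3.90%. For E these percentages were 73.4% and 76.8%, against 9.07% and 9.45% of all features.

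**Figure D2:**
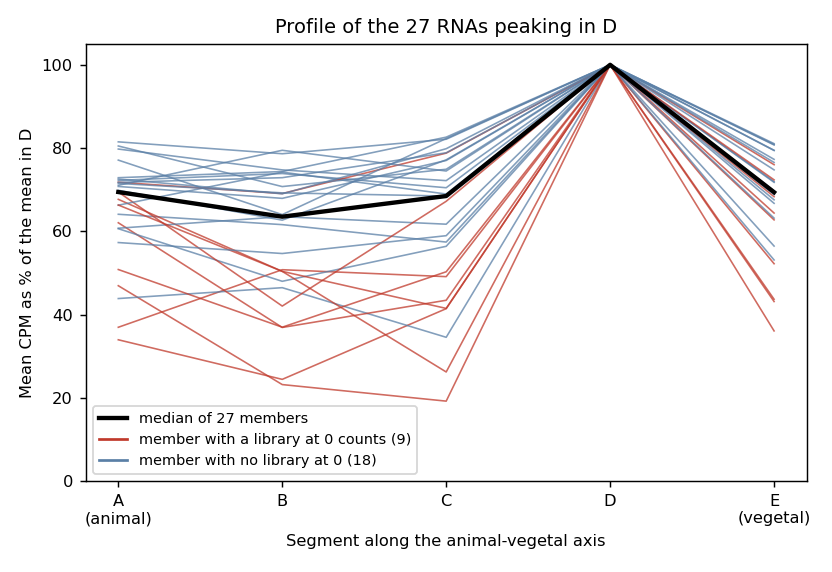
Mean CPM of each of the 27 members in the 5 segments from the animal to the vegetal pole, as a percentage of its mean in D (thin lines), with the median over members in black. The median lies at 63.5% to 69.5% of D in the other 4 segments, and the deepest profiles in A, B and C belong to members with a library at 0 counts.

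Over the members as a group the other 4 segments lay at about the same level, while single members varied along the axis. Set at 100% in D, their median was 69.5% in A, 63.5% in B, 68.5% in C and 69.4% in E. The ranges were wide, from 33.98% to 81.5% in A, 23.2% to 79.5% in B, 19.2% to 82.6% in C and 36.1% to 81.1% in E. The next-highest segment by mean was E for 11 members, C for 7, A for 5 and B for 4. Together the 27 RNAs took 0.0645% ± 0.00517 of the counts in D, against 0.0426% ± 0.00262 in A, 0.0389% ± 0.00485 in B, 0.0412% ± 0.00278 in C and 0.0441% ± 0.00318 in E (SD, n = 4 each).

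Among features with a mean of at least 5 CPM, the members lay towards the low end. Features below that level could not be members and are left out of this comparison. Their mean level over the 20 libraries ran from 5.59 to 82.5 CPM with a median of 11.2, against a median of 21.9 CPM for all features with a mean of at least 5 CPM. Below 10 CPM lay 12 of the 27 (44.4%), against 25.4% of all these features. At 50 CPM or more there was 1 member (3.70%), against 26.7%. Features chosen by the same rule had a median of 14.4 CPM for A, 8.67 for B, 12.5 for C and 32.7 for E. A median below that of all these features was thus shared with the features peaking in A, B and C.

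For most margins of D within an oocyte, the counting intervals of D and another segment overlapped. D exceeded the next segment of the same oocyte by a median factor of 1.2 over the 108 pairs of a member and an oocyte, by less than 1.1 in 33 pairs and by at least 1.5 in 15. For 21 members the smallest of the 4 margins was under 1.1. The exact Poisson 95% interval of the D level lay above the intervals of all 4 other segments in 11 of the 108 pairs (10.2%). The corresponding shares were 12.0% for features peaking in A, 2.14% for B, 7.50% for C and 74.9% for E. The number of features for which this held in all 4 oocytes was 0 for D, 0 for A, 0 for B, 0 for C and 668 for E. Intervals of this kind can overlap where a difference exceeds counting error, so the criterion is strict.

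**Figure D3:**
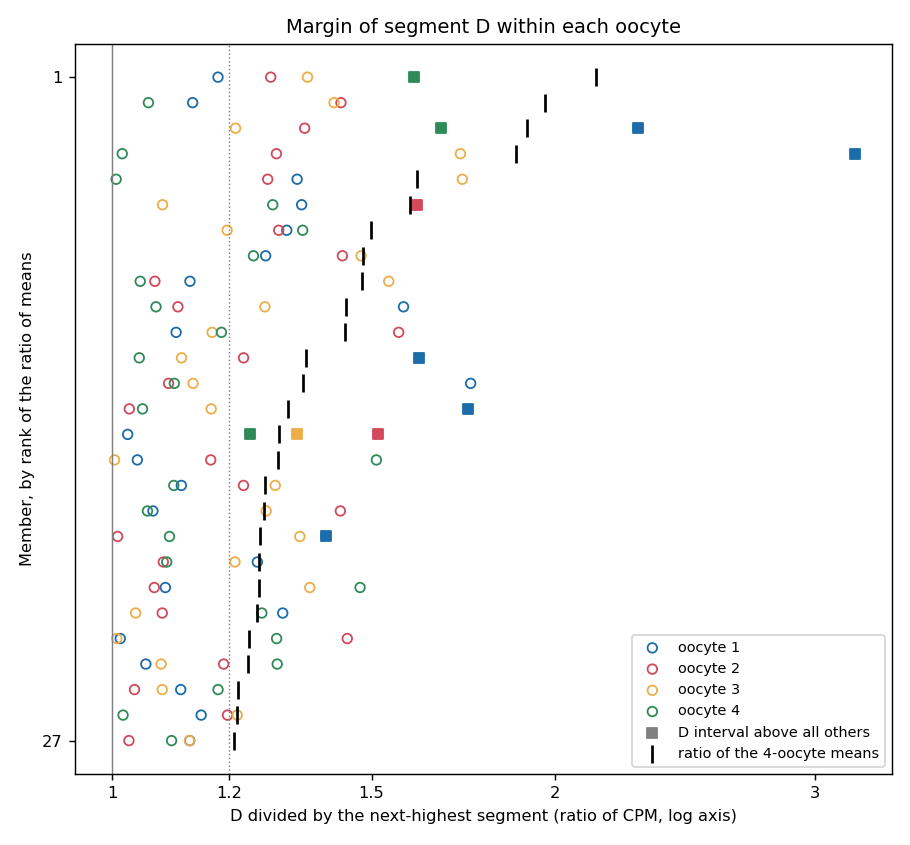
D divided by the next-highest segment of the same oocyte (ratio of CPM, log axis) for the 27 members, ranked by the ratio of their 4-oocyte means (black bars). Filled squares are the 11 of 108 cases in which the Poisson 95% interval of D lay above those of all other segments, and the dotted line is the margin of 1.2 required of the means.

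The D libraries of a member often overlapped those of other segments across oocytes. The D mean exceeded the next segment's mean by more than the SD of D in 14 of the 27 members. This SD also holds differences in level between whole oocytes, which the margins within an oocyte leave out. In 4 members the lowest D library lay above the 4 libraries of the next segment. They were AMEXTC_0340000023589, AMEXTC_0340000079283, AMEXTC_0340000083112 and AMEXTC_0340000172553, singled out after their values were seen. The lowest D library lay above all 16 other libraries in 1 member, AMEXTC_0340000023589. It had 12.0, 10.0, 11.5 and 9.09 CPM in D of oocytes 1 to 4, and its highest other library, E of oocyte 4, had 9.04 CPM. D of oocyte 4 thus exceeded E of oocyte 4 by a factor of 1.01, and the counts of this RNA were 0 in B and E of oocyte 2.

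AMEXTC_0340000004637 had the highest ratio of D to the next segment, 2.13. It had 19.6, 10.9, 33.0 and 46.4 CPM in D of oocytes 1 to 4, against 9.66, 0, 24.3 and 17.6 CPM in A, 9.45, 8.48, 0.758 and 6.81 CPM in B, 16.6, 4.52, 0 and 0 CPM in C and 3.61, 6.20, 9.26 and 28.9 CPM in E. D was highest in each oocyte, by factors of 1.18, 1.28, 1.36 and 1.60, and its range overlapped those of A, C and E across oocytes. In C it was at 0 in oocytes 3 and 4, with 140 and 352 counts in D of the same oocytes. At the one-sided floor of 3 counts, a count of 0 in C of oocyte 4 allows up to 0.508 CPM, and 0 in C of oocyte 3 up to 1.09 CPM. With the 3 libraries at 0 left out of the segment means, the ratio was 1.60.

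AMEXTC_0340000060826 was next, with a ratio of 1.97 and the lowest mean level of any member. It had 15.3, 9.47, 9.18 and 6.99 CPM in D, against 4.67, 6.12, 0 and 4.37 CPM in A, 8.06, 6.27, 6.49 and 0 CPM in B, 6.91, 6.62, 0 and 6.60 CPM in C and 13.5, 0, 0 and 1.26 CPM in E. Its 5 libraries at 0 were spread over A, B, C and E. With these left out of the means the ratio was 1.38, and D of oocyte 4 lay below E of oocyte 1.

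Libraries with no count of a member stood beside the steepest profiles. At least 1 library was at 0 in 9 of the 27 members (33.3%), against 18.0% of all features with a mean of at least 5 CPM. The share was 28.8% for the features peaking in A, 14.3% for B, 25% for C and 14.6% for E. The 19 zeros fell in 10 libraries, 4 in A, 5 in B, 5 in C and 5 in E, and none (0) in D, which the rule fixes. Of the 6 members with a ratio of at least 1.5, 5 had a library at 0. The exception was AMEXTC_0340000187772, with a ratio of 1.88. A zero outside D lowers the mean of its segment, so part of this link can follow from how the ratio is formed. Leaving libraries at 0 out of the means can only lower a ratio or leave it unchanged. With them left out, 4 members still reached 1.5, and 7 of the 9 members with a zero still reached 1.2.

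AMEXTC_0340000187772, singled out after its values were seen, had 21.6, 12.8, 10.4 and 5.54 CPM in D of oocytes 1 to 4. In E it had 6.76, 9.91, 5.19 and 4.88 CPM, and over the 12 libraries of A, B and C from 3.05 to 7.72 CPM. D of oocyte 1 was the high library, 3.20 times the next segment, and D of oocyte 4 was 1.02 times the next. The next segment in oocyte 4 was B, with 8 counts.

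**Figure D4:**
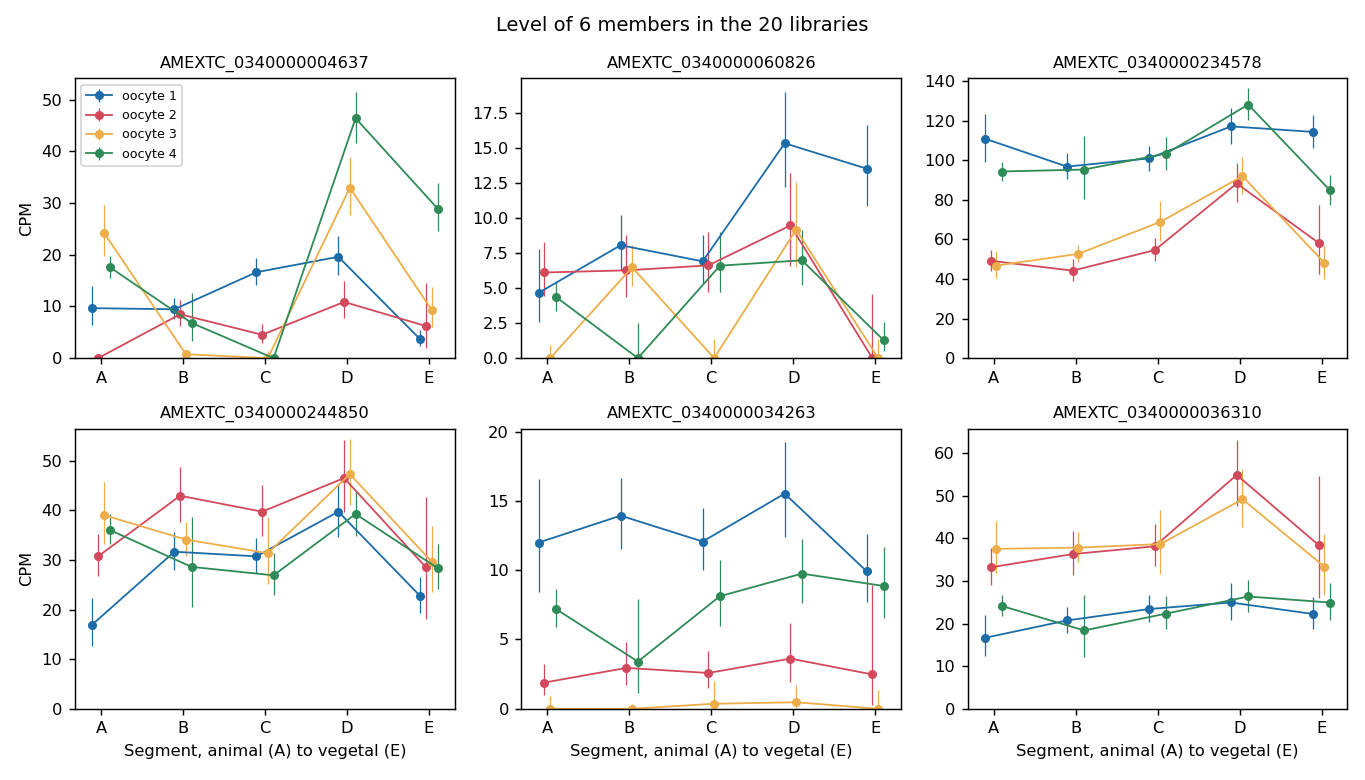
CPM of 6 members in the 20 libraries, with segments in order from the animal to the vegetal pole, 1 line per oocyte and bars for the exact Poisson 95% interval of the count. The top left and top middle members fall to 0 in single libraries, while the top right and bottom right members differ between pairs of oocytes in every segment.

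The deepest counts belonged to AMEXTC_0340000234578, the most abundant member. It had 117, 88.3, 92.0 and 128 CPM in D, against 111, 49.2, 46.8 and 94.4 CPM in A, 96.9, 44.2, 52.7 and 95.4 CPM in B, 101, 54.6, 68.9 and 103 CPM in C and 114, 58.2, 48.2 and 84.8 CPM in E. D exceeded the next segment by factors of 1.02, 1.52, 1.33 and 1.24 in oocytes 1 to 4, and its interval lay above all others in oocytes 2, 3 and 4. No other member had this in more than 2 oocytes. In oocyte 1 the D and E levels were nearly equal.

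AMEXTC_0340000244850 followed in abundance. It had 39.7, 46.5, 47.3 and 39.3 CPM in D, against 17.0, 30.7, 39.0 and 36.1 CPM in A, 31.7, 43.0, 34.1 and 28.6 CPM in B, 30.7, 39.7, 31.4 and 26.9 CPM in C and 22.7, 28.5, 29.6 and 28.4 CPM in E. Its 4 D libraries lay close together, at 43.2 ± 4.29 CPM, and overlapped in range with B and C, at 34.3 ± 6.17 and 32.2 ± 5.41 CPM (SD, n = 4 each). The factor over the next segment ran from 1.08 in oocyte 2 to 1.25 in oocyte 1.

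Each threshold had features close to it on both sides. The member with the smallest ratio of means, AMEXTC_0340000057670, had 7.78 CPM in D and 6.43 CPM in C, a ratio of 1.21. The nearest feature outside this margin, AMEXTC_0340000181226, had 31.9 CPM in D and 26.9 CPM in B, a ratio of 1.19. These means rested on oocytes 2 and 3, with 63.5 and 61.2 CPM in D, while D of oocytes 1 and 4 had 2.22 and 0.659 CPM. In all, 37 features failed on the margin alone. AMEXTC_0340000060826, at 5.59 CPM, was the member nearest to the minimum level. AMEXTC_0340000196696, at 4.73 CPM and with a ratio of 1.36, was nearest below it, and 21 features failed on the level alone. In AMEXTC_0340000160958 the smallest margin within an oocyte was a factor of 1.004. In AMEXTC_0340000250586 it was 0.997, so that D was highest in 3 oocytes and not in the remaining one. As many as 146 features met the level and the margin with D highest in 3 of 4 oocytes, which is more than the 27 with D highest in 4. The same held for A (202 against 52), B (159 against 35) and C (100 against 20), but not for E (369 against 1295).

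Which features were members depended on how libraries were scaled. On CPM scaled by TMM factors, 29 features met the rule for D and 10 of them were among the 27. The same scaling gave 28 for A, 22 for B, 12 for C and 1697 for E. The place of D among A, B and C thus also depended on scaling. TMM factors ran from 0.936 to 1.01 in D, 1.02 to 1.08 in A, 1.04 to 1.07 in B, 1.04 to 1.05 in C and 0.839 to 0.928 in E, so this scaling raises the levels of E most. Of the 17 members lost, 15 had E at or above D in at least 1 oocyte and 2 missed the margin alone. With RLE factors (size factors as in DESeq2), 21 features met the rule for D, 8 of them among the 27. These factors gave 29 for A, 21 for B, 11 for C and 1848 for E. On the scaled values that the authors deposited, 0 features peaked in D, against 0 in A, 523 in B, 691 in C and 426 in E. By those means 16 of the 27 were highest in C, 10 in B and 1 in D, and the D level was a median of 0.424 times the C level. The authors' values sum to far more in B and C than in D, which multiplies every feature of a segment alike.

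Membership also changed when libraries were thinned. With every library thinned at random to 806943 counts, 25 features met the rule for D, and 1 of them was among the 27. The thinning was drawn once, so how this overlap varies between draws was not tested. A draw also adds counting error of its own. Here and for the scalings above, the overlap is given for D alone, so it is not shown to be particular to D. A member then had a median of 14 counts in a D library. In the same thinned libraries 50 features met the rule for A, 43 for B, 24 for C and 1046 for E.

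**Figure D5:**
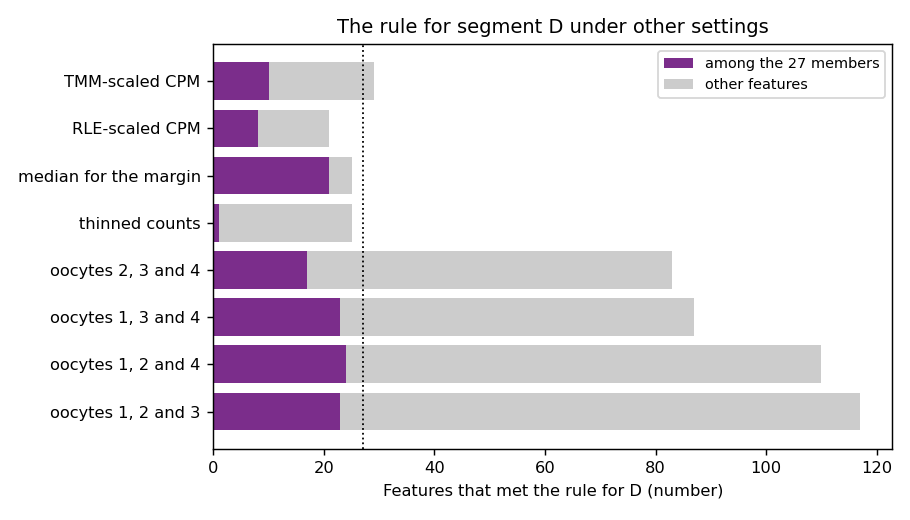
Number of features that met the rule for D under 8 other settings, split into the 27 members (purple) and other features (grey), with 27 marked by the dotted line. TMM scaling kept 10 of the 27, thinning kept 1, and with 3 oocytes 83 to 117 features met the rule.

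Over 8 settings (TMM, RLE, the median in place of the mean, thinning, and each oocyte left out), the number of members kept in all was 0, and 7 members were kept in 7 of them, each lost on thinning alone. These 7 included AMEXTC_0340000004637, AMEXTC_0340000160958 and AMEXTC_0340000244850. Where an oocyte is left out, a member has D highest in the other 3 by its choice, and only the margin or the level can fail. Each oocyte could be left out in turn without loss for 13 members.

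The flanks of the peak were compared next, since the rule sets no order among A, B, C and E. It does bound them all from above by D, so an RNA much higher in E than in A, B and C could rarely be a member. Between E and the mean of A, B and C, 0 of the 27 members passed the threshold of 0.05 on the adjusted p of edgeR's quasi-likelihood test, and DESeq2 also called 0. Neither fit had an oocyte term, although the segments of an oocyte are pieces of the same cell. In edgeR, 20.7% of all 32302 features were called, and 26.8% of those with a mean of at least 5 CPM. At an unadjusted p under 0.05 there were 3 of the 27, against 30.0% of all features. With the oocyte as a block, edgeR called 27.2% of all features, and 12.6% of all features were called as higher in E. The same fit called 4 of the 27 members (14.8%), each higher in E, so the 0 above depended on leaving out the block. These 4 members were AMEXTC_0340000251665, AMEXTC_0340000034719, AMEXTC_0340000184615 and AMEXTC_0340000036310, named after the values were seen. Their log2 fold changes ran from 0.32 to 0.66 and their adjusted p from 0.0150 to 0.0290 (edgeR). The block was fitted with TMM factors alone. On CPM by library totals, the E mean of these 4 was 1.03 to 1.39 times the mean of A, B and C.

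Scaling moved the flanks of all features together. The members' median log2 fold change of E over A, B and C was 0.34 with TMM factors, where the median of all features was -0.05. It was 0.08 with library totals, where that of all features was -0.30, and -1.57 with the authors' constants, where that of all features was -1.96. The members' median thus changed sign with the scaling and lay 0.39 above that of all features under each of the 3. A scaling shifts all features nearly alike, so this agreement is no separate result about the members. On CPM by library totals the E mean was above the mean of A, B and C in 17 members and at or below it in 10.

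Among A, B and C no order was resolved for any member. The test called 0 of 27 in edgeR, with 0 at an unadjusted p under 0.05, and DESeq2 called 0. It called 0 (0.0%) of all 32302 features, with 342 (1.06%) at an unadjusted p under 0.05. This edgeR fit had no oocyte term. Its 1.06% is below the share of 0.05 expected where nothing differs, so the fit was conservative for this comparison. What lies behind the low share was not tested. The same fit gave the 0 members called for E against A, B and C. With the oocyte as a block, edgeR also called 0 members and 0 of all features, with 1 member at an unadjusted p under 0.05.

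The level of an oocyte, which the rule did not use, varied among the members about as it did among other RNAs. With the segment held fixed, 10 of 27 members (37.0%) passed the adjusted threshold of 0.05 for a difference between the 4 oocytes in edgeR. Of all features 26.2% did, and of those with a mean of at least 5 CPM 31.6%. The number was 10 without oocyte 1 (21.7% of all features), 8 without oocyte 2 (19.5%), 5 without oocyte 3 (19.9%) and 6 without oocyte 4 (17.3%). It was 4 in thinned libraries (20.5%) and 10 with DESeq2 (38.4%). With 27 members these numbers are small, and their changes between settings are no separate result about the members. In the 10 members that edgeR called with all 4 oocytes, the highest oocyte mean was 1.61 or more times the lowest, with a median of 1.85.

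The difference fell between pairs of oocytes. Oocytes 1 and 4 both lay above 2 and 3 in 3 of the 10, and oocytes 2 and 3 both lay above 1 and 4 in 7. Of the 6555 features called at a mean of at least 5 CPM, 48.9% had the first order and 44.7% the other, so this pairing was general. In the numbering of the sample titles, oocytes 1 and 4 carry neighbouring numbers, and so do oocytes 2 and 3. What that numbering stands for is not given. Where 3 oocytes chose and 1 was read, those that chose included the other oocyte of its pair. Where oocytes 1 and 4 chose, or 2 and 3, they did not.

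AMEXTC_0340000034263 differed most clearly between oocytes (adjusted p 7.08e-06, edgeR). In oocytes 1 to 4 it had 15.5, 3.62, 0.471 and 9.75 CPM in D, against 12.0, 1.89, 0 and 7.20 CPM in A, 13.9, 2.95, 0 and 3.41 CPM in B, 12.1, 2.58, 0.365 and 8.12 CPM in C and 9.92, 2.48, 0 and 8.86 CPM in E. Oocyte 1 was high and oocyte 3 near 0 in every segment. In oocyte 3 the D library held 2 counts and the C library 1, which is under the floor of 3 counts, so no maximum was detectable there at this depth.

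AMEXTC_0340000036310 came next (adjusted p 1.74e-05, edgeR). It had 24.95, 54.9, 49.2 and 26.4 CPM in D, against 16.7, 33.2, 37.5 and 24.1 CPM in A, 20.7, 36.3, 37.8 and 18.4 CPM in B, 23.4, 38.1, 38.7 and 22.3 CPM in C and 22.2, 38.4, 33.4 and 24.9 CPM in E. Oocytes 2 and 3 lay above oocytes 1 and 4 in every segment. D stood over the next segment by factors of 1.43 and 1.27 in oocytes 2 and 3, and of 1.07 and 1.06 in oocytes 1 and 4.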

How the data were processed

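The authors deposited raw counts per feature, and a table of scaled values, a signal that is each count times 1 constant per library; how the constants were chosen is not stated. Dividing by the constant gave whole reads (tolerance 0.001) for 100% of values, all equal to the deposited count, so the count test on these reads is the one reported here and called 6676 features for E against A, B and C. The submitters' processing notes name Trimmomatic, STAR 2.5.3a, kallisto and DESeq2, with no role; the genome build and annotation are not given in the sources used here. Per the labels' protocols, ribosomal RNA was depleted from 80 ng of total RNA and the library kit kept the strand. Every feature had a highest count of at least 30. None (0) of the identifiers matched the RefSeq gene table of assembly UKY_AmexF1_1. Overlapping or near-identical genes could therefore not be recognised.

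The rule used CPM by column total. Tests used edgeR 4.0.16 in R 4.3.3 on counts, after filterByExpr (minimum count 10, minimum total 15), which kept 32302 features and all 27 members, with TMM factors and robust quasi-likelihood fits. Each segment had its own mean, and the test of oocytes added an oocyte term. P-values were adjusted by Benjamini-Hochberg over all features. DESeq2 was 1.42.0. The fits were tested on simulated counts drawn independently for each library, which does not bear on the pairing of pieces of 1 oocyte. Per the labels, equal numbers mark pieces of 1 oocyte, and the deviations of such libraries from segment means (log2 of CPM + 1) correlated across features with a median r of 0.335 over 40 pairs (0.198 to 0.507); the oocyte block was an alternative. No columns were identical (0). Intervals and floors cover counting error only. Members, rules and tests were chosen with earlier results of these data known. Named features were the 2 members highest by ratio, by mean level and by the oocyte test, and those next to each threshold. The naming rule also covered members called for E against A, B and C, and the edgeR fit without a block had none (0).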

Additional observations from a re-analysis of the deposited data

Results flagged for a closer look

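AMEXTC_0340000060826 was the 1 member with libraries far from the others of its segment, among the 40 groups of 4 libraries of named members that were checked. In segment C its level was 0 CPM in oocyte 3, against 6.60 to 6.91 CPM in the other oocytes. In segment E it was 13.5 CPM in oocyte 1, against 0, 0 and 1.26 CPM in the others. For values of a normal distribution, chance gives such a gap in about 1 in 20 groups, which is 2 of 40, and 2 were found. CPM values with zeros need not follow that rate, so the comparison does not settle whether the gaps are chance.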

How the results depend on the processing

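The number of RNAs peaking in D was 27. It was 6 with a margin of 1.5 times, 64 with no margin, 48 at a minimum of 1 CPM, 8 at a minimum of 20 CPM, 310 in oocytes 1 and 4 alone and 287 in oocytes 2 and 3 alone. It ran from 83 to 117 with each oocyte left out, where fewer oocytes have to show the order. It was 0 on the authors' scaled values. It was also 0 when the D interval had to lie above all others in each oocyte, a setting chosen after seeing the data. Leaving out features with a 0 in any library, also chosen then, gave 18. TMM, RLE, the median and thinning moved the number by less than 1.5 times but not the same features, as given above. The recurrence in the oocyte left out was 25.7% on TMM-scaled CPM, where all features averaged 17.3%. Members that differed between oocytes numbered 4 after thinning (20.5% of all features) and 5 to 10 with an oocyte left out (17.3% to 21.7%), against 10 and 26.2%. For E against A, B and C, 0 members became 4 with the oocyte as a replicate block, 1 with RLE factors (AMEXTC_0340000251665), 1 after thinning (AMEXTC_0340000184615), 0 to 1 with an oocyte left out (1 without oocyte 2), and 20 with the authors' constants, each lower in E, on a scale that called 26291 of 32302 features. Among A, B and C, 0 became 16 with those constants (63.0% of all features) and stayed 0 under the other alternatives run; the paired fit changed no call there. Causes were not tested. Thinned D libraries held a median of 14 counts of a member, which limits what thinning can show.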
